A study of Rattus norvegicus with 20 samples.

Results

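The comparison described here sets INS-1 cells given islet amyloid polypeptide (IAPP) against cells given its solvent. INS-1 is a rat insulinoma line that makes and releases insulin and is used as a model of the pancreatic beta cell. The 10 arrays compared, of 20 in the series, are the 5 whose title holds the word IAPP and the 5 whose title holds DMSO. IAPP was added as monomer at 77 uM (300 ug/ml) and the control wells received 1% DMSO. Treatment began about 48 h after 100000 cells had been plated per well, and RNA was taken 10 h later. The cells had been kept as 5 separate clones, but the labels do not say which clone a well came from, so the p-values measure the spread between these wells. DMSO is named as the solvent in which IAPP was given, and the species of the peptide is not stated. The other 10 arrays carry the titles C4BPD and C4BP, for C4b-binding protein, an inhibitor of complement. The likely reading, which the labels do not spell out, is the binding protein with solvent for C4BPD and with IAPP for C4BP.

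The groups rest on the titles alone. A separate treatment field names the word of the title in only 2 of the 10 arrays. With groups formed by that field no gene passed the threshold used below, and 707 genes had an unadjusted p under 0.05 by limma. The titles also carry a running number, in which the IAPP array comes first and the DMSO array last among the arrays of each replicate number. What that order stands for is not stated, and it cannot be told apart from the treatment. The compared arrays had median intensities between 172.8 and 182.4, and any pair of them correlated at 0.991 to 0.996 over all probe sets.

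IAPP, also called amylin, is a peptide hormone that beta cells store and release together with insulin. Its human form assembles into oligomers and amyloid fibrils, which are found in the islets of people with type 2 diabetes and are toxic to beta cells in culture. Stressed cells share a small set of gene programmes. The kinase JNK drives AP-1 factors such as Jun, the integrated stress response drives ATF4 and its targets for amino acid supply, MTF1 drives metallothioneins when free zinc rises, and NRF2 drives antioxidant enzymes. The unfolded protein response acts through XBP1, ATF6 and PERK on chaperones of the endoplasmic reticulum (ER), and SREBP factors set the level of sterol synthesis.

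Promoter sequences of genes from these programmes come first. In the RefSeq promoter table (GRCr8), which spans 250 bases before to 50 bases after each start site, 1137 of 27457 genes (4.14%) held the C/EBP-ATF response element, the site through which ATF4 acts, searched as TGATGNAAN on both strands. Among the members of the ATF4 and amino acid lists that rose with IAPP and had a promoter entry, 14 of 25 (56%) held it. Among members of the same lists that did not pass the test, 4 of 46 (8.7%) held it, and among all genes that rose, 24 of 206 (11.7%) did. The share differed between the lists. Of the members that rose, 7 of 8 synthetases, 3 of 4 transporters, 3 of 7 ATF4 targets and 1 of 6 synthesis enzymes held it. A match is a description of the letters and not a site shown to be used. The windows below, 41 bases each, come from genes with a match among those that carry the amino acid and ATF4 results. They show the match in capitals and the gene's own strand from 5′ to 3′. They lie at chr3:161275534-161275574 (minus strand, Trib3), chr3:126795947-126795987 (plus, Chac1), chr1:190645933-190645973 (minus, Nupr1), chr14:98761772-98761812 (minus, Slc1a4), chr12:11664442-11664482 (plus, Slc7a1), chr17:15193653-15193693 (minus, Iars1), chr19:55908353-55908393 (plus, Aars1) and chr7:65023754-65023794 (minus, Mars1).
Trib3: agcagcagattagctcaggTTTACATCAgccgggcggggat
Chac1: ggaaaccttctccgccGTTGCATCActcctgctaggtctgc
Nupr1: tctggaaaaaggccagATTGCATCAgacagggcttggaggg
Slc1a4: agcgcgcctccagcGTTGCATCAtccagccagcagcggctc
Slc7a1: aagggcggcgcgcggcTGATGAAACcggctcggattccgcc
Iars1: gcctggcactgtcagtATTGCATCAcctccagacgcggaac
Aars1: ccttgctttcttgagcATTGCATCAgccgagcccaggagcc
Mars1: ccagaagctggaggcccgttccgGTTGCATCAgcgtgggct

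Across the whole array, the response to IAPP was broad in number and modest in size. Of 18166 genes, 614 (3.38%) passed an adjusted p of 0.05 by limma, 257 of them higher (1.41% of all genes) and 357 lower (1.97%). The median size of their log2 difference was 0.256, and the median difference over all genes was 0.0018. The difference reached 2-fold in 6 genes, each of them higher in IAPP, namely Jun, Mt1, Mt1f, Trib3, Cpt1a and Atf3. At a log2 difference of at least 0.5 there were 23 higher and 26 lower genes. The 5 arrays of either group lay wholly above those of the other in 524 of the 614 genes (85.3%), against 877 of all genes (4.83%). Of the genes past the threshold, 34 had group means below the median of all probe sets in both groups, and whether these exceed background is not known. Without IAPP 4 the count of 614 was 405, by the same test. Among 17984 probe sets without exactly 1 gene symbol, tested apart, 48 were higher and 19 lower.

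**Figure D1:**
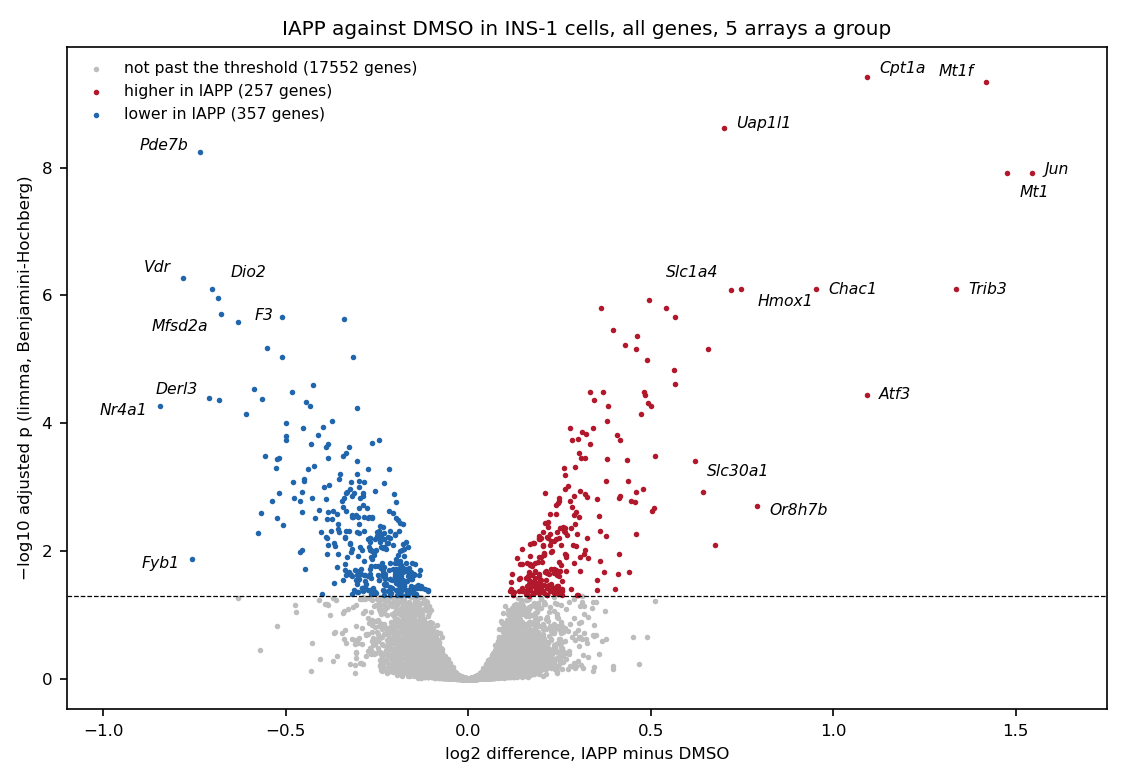
Log2 difference between IAPP and DMSO on the x axis against −log10 of the limma adjusted p on the y axis, 1 point per gene, with red for the 257 genes higher in IAPP, blue for the 357 lower and the dashed line at an adjusted p of 0.05. The largest increases (Jun, Mt1, Mt1f, Trib3) exceed 1.3 on the log2 scale, whereas no decrease reaches 1.

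Jun, the AP-1 subunit switched on by JNK, showed the largest increase of all genes past the threshold. Its intensity was 338, 334, 284, 394 and 293 in DMSO arrays 1 to 5 and 798, 968, 871, 1273 and 912.5 in IAPP arrays 1 to 5. The groups did not overlap, and IAPP array 4 was the highest. The means of 328.5 ± 43.9 and 964.5 ± 183 (SD, n = 5 each) correspond to a 2.92-fold increase, a log2 difference of 1.55 (SE 0.11, limma adjusted p = 1.23e-08). Atf3, a stress-induced factor that pairs with Jun, read 230.2, 257, 262, 273 and 227.5 in DMSO and 450.4, 617, 365, 764 and 545 in IAPP. All 5 IAPP arrays were above all DMSO arrays, with array 4 again the highest and array 3 the lowest, and the log2 difference was 1.09 (SE 0.13, limma adjusted p = 3.57e-05).

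Of the 19 measured members of the AP-1 and ATF list, 5 rose and 1 fell, with a median log2 difference of 0.072. Besides Jun and Atf3, the increases were in Jund (from 952 ± 53.4 to 1325 ± 139, SD, n = 5), Atf5 and Atf4, with log2 differences of 0.47, 0.38 and 0.29. Fos, the usual partner of Jun, fell from 305, 299, 293, 284 and 276 to 217, 214, 221, 221 and 211.5, a log2 difference of −0.43 (SE 0.05, limma adjusted p = 2.49e-05) with no overlap. Jun and Fos thus moved in opposite directions in every IAPP array relative to every DMSO array. The AP-1 site, searched as TGANTCA on both strands, was held by 15 of 206 promoters (7.28%) of genes that rose. Among tested genes with a promoter entry 994 of 14564 (6.83%) held it. In the list of the stress-kinase arm of the MAP kinases, 2 of 23 members rose and none fell, beside 1.41% higher over all genes. These were Dusp16 (from 807 ± 24.1 to 1129 ± 58.4) and Dusp8 (from 1940.3 ± 96.1 to 2612 ± 52.6), phosphatases that act on JNK and p38, with log2 differences of 0.48 and 0.43 (limma adjusted p = 3.57e-05 and 5.95e-06).

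Some ATF4 targets rose, among them Trib3 and Chac1. Of 24 measured members of the list of ATF4 targets and stress sensors, 8 rose and none fell, and the median log2 difference was 0.064. Of these 8, Atf3, Atf4 and Atf5 are also counted in the AP-1 and ATF list. Trib3, a pseudokinase that restrains ATF4 and AKT, read 312, 209, 263, 256 and 256 in DMSO and 597, 636, 511, 899 and 662 in IAPP. The lowest IAPP array stood well above the highest DMSO array, and the difference was 2.52-fold, or 1.34 on the log2 scale (SE 0.12, limma adjusted p = 7.96e-07). Chac1, an enzyme that degrades glutathione, read 360.3, 398, 366, 331 and 292 in DMSO and 709.6, 656, 596, 682 and 730 in IAPP. That is a 1.94-fold increase without overlap (log2 0.95, SE 0.09, limma adjusted p = 7.96e-07).

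Ddit3, which encodes the death-linked factor CHOP, rose less. It read 719.8, 617, 726, 645 and 593.5 in DMSO and 931, 984, 816.5, 1017 and 798.5 in IAPP, so the groups were close but did not overlap (log2 0.46, SE 0.08, limma adjusted p = 0.00118). Gdf15, a secreted stress hormone, and Nupr1, a stress-induced chromatin protein, had log2 differences of 0.51 and 0.46. Trib3, Chac1 and Nupr1 are among the genes whose promoter windows held the response element, at −22, −168 and −56 from the start site. The promoter entries of Ddit3 and Atf4 held no match to these letters.

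Some of the enzymes that charge transfer RNAs with amino acids rose, by small steps. Of 19 measured cytosolic aminoacyl-tRNA synthetases, 8 rose and none fell, with a median log2 difference of 0.124 against 0.0018 over all genes. Cars1, for cysteine, read 892, 889.5, 986.5, 890.4 and 902 in DMSO and 1286, 1214, 1270, 1242 and 1273 in IAPP. DMSO array 3 was the highest of its group yet below every IAPP array, and the log2 difference was 0.46 (SE 0.05, limma adjusted p = 4.31e-06). Aars1, for alanine, read 2202, 2195, 2206, 2211 and 2354 in DMSO, where array 5 stood above 4 nearly equal arrays. Its IAPP arrays were 2889, 2891, 2742, 2993 and 2852, a log2 difference of 0.36 (SE 0.03, limma adjusted p = 1.59e-06). Iars1, for isoleucine, and Mars1, for methionine, had differences of 0.40 and 0.32. Of the 8 synthetases that rose, 7 held the C/EBP-ATF response element in their promoter entry (for Cars1 at 16 bases past the start), whereas none of 9 synthetases that did not pass did.

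Among amino acid transporters, 4 of 23 measured members rose and none fell. Slc1a4, which carries alanine, serine and cysteine, read 865, 714, 821, 770 and 858 in DMSO and 1410, 1285, 1269, 1312 and 1350 in IAPP. Every IAPP array was higher by a wide margin (log2 0.72, SE 0.06, limma adjusted p = 8.09e-07). The glycine carrier Slc6a9 and the carrier of cationic amino acids Slc7a1 had differences of 0.50 and 0.46. The glutamine carrier Slc38a1 (0.41, limma adjusted p = 0.0231) did not pass without DMSO 2, DMSO 4, DMSO 5, IAPP 1 or IAPP 3, with an adjusted p of up to 0.0728.

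Enzymes of amino acid and one-carbon synthesis also rose in part. Of 17 measured members 7 passed, all higher, with a median log2 difference of 0.07 over the list. With arrays centred on their median 4 passed, and without all arrays of number 2 there were 3. The alanine aminotransferase Gpt2 went from 708 ± 42.6 to 985 ± 28.8 (SD, n = 5; log2 0.48, limma adjusted p = 0.00108). Psat1, of serine synthesis, read 4709, 4825, 5379, 4852 and 4857 in DMSO and 6131, 6185, 6395, 6125 and 6192 in IAPP, a difference of 0.33 (SE 0.04, limma adjusted p = 3.23e-05), with replicate 3 the highest in both groups. Asparagine synthetase, Asns, a standard marker of amino acid stress, had a difference of 0.28 (SE 0.04, limma adjusted p = 0.000183).

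**Figure D2:**
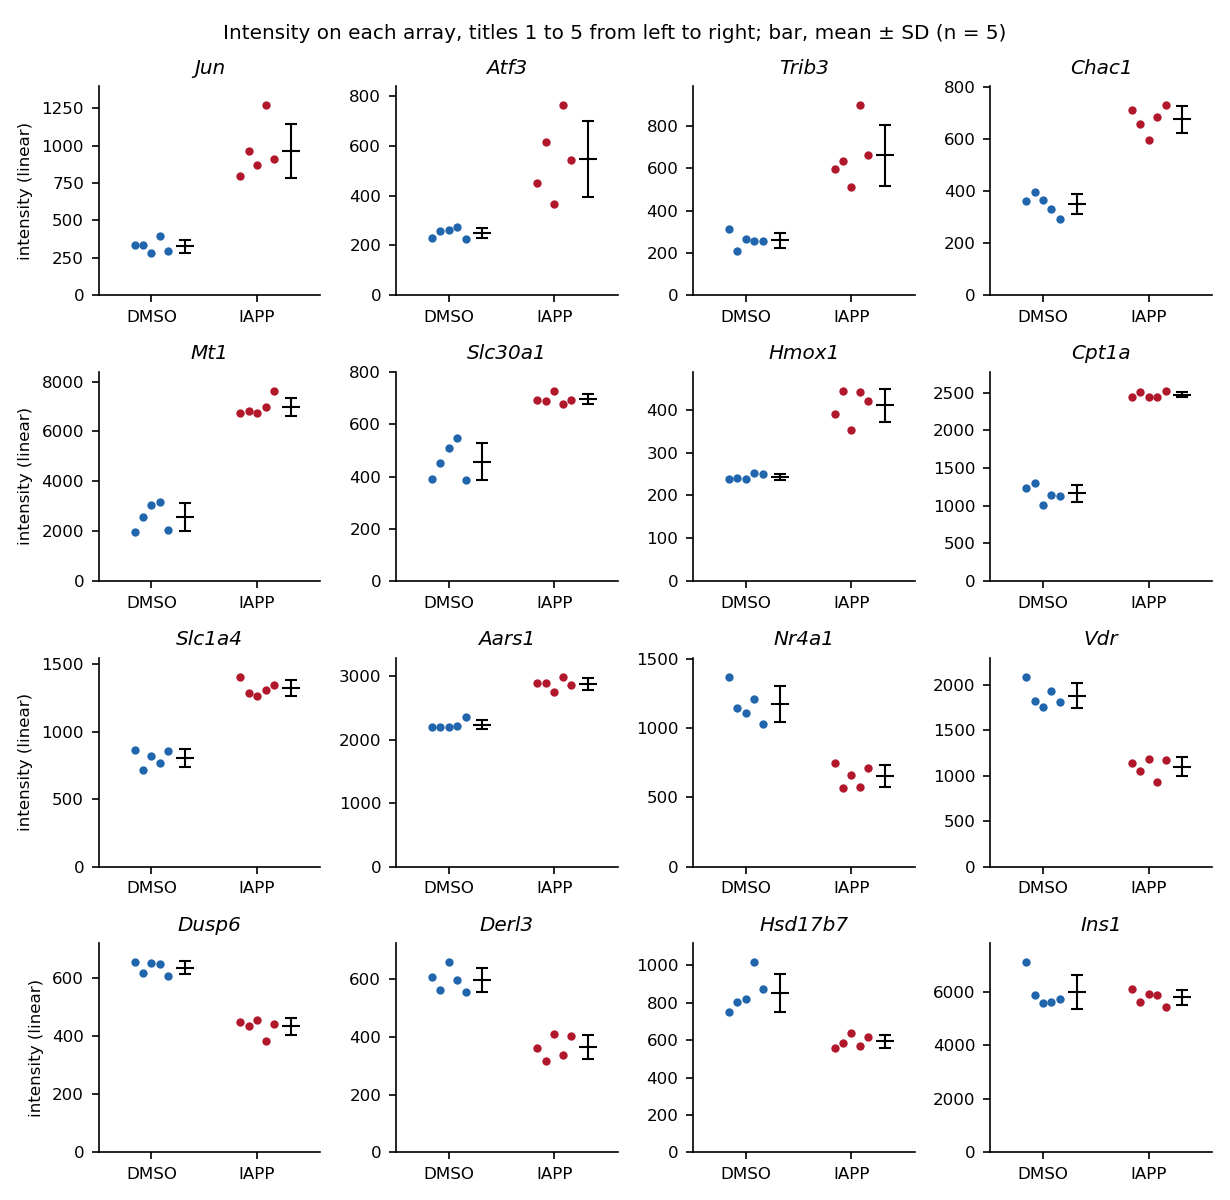
Intensity on a linear axis starting at 0 for 16 genes, with 1 point per array (titles 1 to 5 from left to right) and the mean ± SD of each group beside it. The groups are separate for every gene shown except Ins1, and IAPP array 4 is the highest for Jun, Atf3 and Trib3.

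The metallothionein genes Mt1 and Mt1f, for small proteins that bind zinc and copper, were among the largest increases. Mt1 read 1957, 2577, 3051, 3159 and 2041 in DMSO and 6759, 6805, 6725, 6995 and 7635 in IAPP. DMSO arrays varied more than IAPP arrays, and the lowest IAPP array was far above the highest DMSO array. The 2.78-fold difference was 1.48 on the log2 scale (SE 0.10, limma adjusted p = 1.23e-08). The probe set named Mt1f went from 1212 ± 181 to 3215 ± 129 (SD, n = 5), a log2 difference of 1.42 (SE 0.08, limma adjusted p = 4.56e-10). Metallothionein genes are near copies of each other, and probe sets for them may read the same RNA, so the calls of Mt1 and Mt1f may not be independent. Slc30a1, the zinc exporter of the plasma membrane and a target of the same factor, MTF1, read 391, 454, 508, 546 and 387 in DMSO and 693.5, 688, 729, 678 and 694 in IAPP. DMSO arrays 3 and 4 were the highest of their group for Slc30a1 as for Mt1, and the log2 difference was 0.62 (SE 0.09, limma adjusted p = 0.000393). These 3 were the only members past the threshold among 23 measured in the metallothionein and zinc list, whose median difference was 0.002. Mt2A read between 144 and 173 in DMSO and between 149 and 179 in IAPP, overlapping ranges (log2 0.08, limma adjusted p = 0.707). Both group means of Mt2A lie below the median of all probe sets, and whether they exceed background is not known.

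The promoter of Mt1 is shown because Mt1 was the second largest change and its zinc control is well known. The stretch of 190 bases before the start, chr19:10832976-10833165 on the minus strand of GRCr8, held 7 matches to the metal response element, searched as TGCNCNC on both strands and printed in capitals.
Mt1: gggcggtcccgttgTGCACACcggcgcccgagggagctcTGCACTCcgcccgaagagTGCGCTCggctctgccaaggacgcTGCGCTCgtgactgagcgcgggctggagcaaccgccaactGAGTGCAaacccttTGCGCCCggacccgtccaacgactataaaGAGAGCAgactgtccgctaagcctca
This motif is short, and 52% of all genes in the table held at least 1 match, while 204 of 27457 (0.743%) held 5 or more. In the metallothionein and zinc list, 1 of 3 members that rose and 3 of 15 that did not pass held 5 or more. Among all genes that rose 1 of 206 (0.485%) did, beside 132 of 14564 tested genes (0.906%).

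NRF2 antioxidant genes rose in part, with Hmox1 ahead. Of 29 measured members, 8 rose and none fell, and the median log2 difference was 0.086. Hmox1, heme oxygenase, had DMSO arrays within a narrow band (238, 239.7, 237, 252 and 251) and IAPP arrays of 391, 445, 353, 441 and 421. The difference was 1.68-fold (log2 0.75, SE 0.07, limma adjusted p = 7.96e-07), with no overlap. Osgin1, an oxidative stress response gene, and Srxn1, the sulfiredoxin that repairs peroxiredoxins, had differences of 0.38 and 0.30 (limma adjusted p = 0.00572 and 0.000174). Gclc, which makes the rate-limiting subunit for glutathione synthesis, went from 807 ± 66 to 969 ± 42.2 (0.27, limma adjusted p = 0.0114). The antioxidant response element was searched as TGACNNNGC on both strands. Of members with a promoter entry, 2 of 7 that rose and 6 of 20 that did not pass held it, beside 13.1% of all genes in the table.

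Some genes of fatty acid oxidation rose, with the gatekeeper of the pathway ahead. Cpt1a, which passes long-chain fatty acids into mitochondria, read 1240, 1301, 1008, 1146 and 1131 in DMSO. In IAPP it read 2449, 2505, 2450, 2450 and 2528, so that the IAPP arrays were nearly equal to each other and far from every DMSO array. The 2.13-fold difference (log2 1.09, SE 0.06) had the smallest adjusted p of all genes by limma, 3.84e-10. In the list of fatty acid oxidation and PPAR targets, 7 of 46 measured members rose and 1 fell, and the median difference was −0.009, so most of the pathway was not called. The fatty acid carrier Fabp3 read 643, 630.4, 732, 735 and 666 in DMSO and 1091, 1061, 1051, 1098 and 1054 in IAPP (log2 0.66, SE 0.07, limma adjusted p = 6.84e-06). The enzymes Eci2 and Acaa2 had differences of 0.49 and 0.45. Slc25a20, the carnitine carrier that works beside Cpt1a, had a difference of 0.37 (limma adjusted p = 3.23e-05).

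Many target genes of cyclic AMP and CREB fell. Of 26 measured members of the NR4A and CREB list, 11 fell and none rose, with a median log2 difference of −0.177. Nr4a1, an orphan nuclear receptor induced within minutes of cyclic AMP or calcium signals, read 1374, 1146, 1108, 1210 and 1033 in DMSO and 751, 568, 664, 579 and 710.2 in IAPP. It was the largest decrease past the threshold, with a log2 difference of −0.85 (SE 0.11, limma adjusted p = 5.38e-05) and no overlap. Its relatives Nr4a2 and Nr4a3 had differences of −0.51 and −0.40. Pde7b, a phosphodiesterase that breaks down cyclic AMP, read 978.5, 871, 907, 913 and 912 in DMSO and 577, 545, 588, 490.2 and 559 in IAPP, a difference of −0.73 (SE 0.05, limma adjusted p = 5.71e-09). Dio2, which activates thyroid hormone, and Sik1, a kinase that switches CREB coactivators off, had differences of −0.70 and −0.68. Irs2, the insulin receptor substrate under CREB control in beta cells, went from 1966 ± 171 to 1504 ± 74.1 (SD, n = 5; −0.38, limma adjusted p = 0.000209). Crem and Per1 had differences of −0.35 and −0.33. Of the 8 members that fell and had a promoter entry, 2 held the cyclic AMP response element, searched as TGACGTCA on both strands, against 2% of all genes in the table and 2 of 14 members that did not pass.

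Of 19 measured feedback genes of the ERK pathway 2 fell and none rose, beside 1.97% lower and 1.41% higher over all genes. The median difference was −0.038, and with arrays centred on their median 1 passed. Dusp6, the phosphatase that ERK induces to switch itself off, read 653, 616, 649.5, 648 and 606 in DMSO and 449, 434, 453, 383 and 442 in IAPP. The groups were far apart, IAPP array 4 was the lowest, and the log2 difference was −0.56 (SE 0.08, limma adjusted p = 0.000322). Etv5, an ERK-induced transcription factor, had a difference of −0.31 (limma adjusted p = 0.041). It did not pass when any 1 of the DMSO arrays, IAPP 2 or IAPP 4 was left out, with an adjusted p of up to 0.14.

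Genes of sterol and fatty acid synthesis fell in part. In the cholesterol list 7 of 21 measured members fell and none rose, with a median log2 difference of −0.176. Hsd17b7, an enzyme of cholesterol synthesis, read 750.5, 803, 823, 1017 and 872 in DMSO and 557, 585, 637, 568 and 619.7 in IAPP, a difference of −0.52 (SE 0.08, limma adjusted p = 0.000344) without overlap. Idi1, an isomerase of the isoprenoid steps, read 3366, 3303, 3633, 3690 and 3061 in DMSO and 2628, 2648, 2759, 2505 and 2515 in IAPP (−0.38, SE 0.06, limma adjusted p = 0.00035). Insig1, the sterol sensor that holds SREBP back, the squalene synthase Fdft1 and the sterol oxidase Msmo1 had differences of −0.30, −0.26 and −0.26. In the fatty acid synthesis list 5 of 19 fell and none rose, with a median of −0.054. Srebf1, which encodes SREBP1, went from 981.5 ± 40.4 to 796 ± 68.1 (−0.31, limma adjusted p = 0.00272), and the desaturase Scd2 had a difference of −0.30. Without all 4 arrays of replicate number 4, none of the 19 fatty acid synthesis genes passed. Of 6 promoters of cholesterol genes that fell, none held the sterol response element searched as TCACNCCAC on both strands, which 1.25% of all genes held.

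Among genes of sterol handling, calls went both ways. Npc1, which exports cholesterol from lysosomes, read 1426, 1402, 1172, 1390 and 1402 in DMSO and 1637, 1692, 1664, 1660 and 1747 in IAPP. DMSO array 3 was low, and all IAPP arrays lay above all DMSO arrays (0.31, SE 0.05, limma adjusted p = 0.00035). Abcg1, a sterol exporter induced by LXR, had a difference of −0.22 (limma adjusted p = 0.00734). In the list of sterol efflux and LXR targets, 2 of 14 rose and 1 fell, beside 1.41% higher and 1.97% lower over all genes. The second that rose, Npc2, a partner of Npc1 in the lysosome (0.19), did not pass without DMSO 2, DMSO 3, DMSO 5 or any of IAPP 1 to IAPP 4 (adjusted p up to 0.114), nor with centred arrays.

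Several chaperones and folding factors of the ER fell. Of 27 measured members 7 fell and 1 rose, with a median log2 difference of −0.102. Creld2 and Sdf2l1, ER proteins that the unfolded protein response normally induces, went from 2051 ± 226 to 1560.2 ± 81.4 and from 1473 ± 144 to 1129 ± 94.1 (SD, n = 5 each; −0.39 and −0.38, limma adjusted p = 0.00152 and 0.00241). Hspa5, the master chaperone BiP, read 13095, 13200, 13849, 13112 and 13602 in DMSO and 12486, 12417, 12598, 12205 and 12599 in IAPP. All IAPP values for Hspa5 lay below all DMSO values, but the difference of −0.10 had a limma adjusted p of 0.0824. Xbp1 had a difference of −0.11 (limma adjusted p = 0.0417), which passed in only 1 of the 10 fits that left out a compared array, the 1 without IAPP 3. Ern1, the sensor that splices Xbp1, was the member that rose (0.21, limma adjusted p = 0.0223), and it did not pass without DMSO 2, DMSO 3, IAPP 1, IAPP 4 or IAPP 5 (adjusted p up to 0.0665). The count of 8 depends on single arrays. It was 4 without DMSO 1 or DMSO 2, 2 without DMSO 3, IAPP 4 or IAPP 5, 3 without IAPP 2 and 5 without DMSO 5, and 3 when each array was centred on its median.

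In ER-associated degradation 2 of 22 measured members fell and none rose, beside 1.97% lower over all genes. Derl3, a channel protein induced through XBP1, read 606, 563, 657, 595 and 555 in DMSO and 362, 315, 410.3, 335 and 403 in IAPP, a difference of −0.71 (SE 0.09, limma adjusted p = 4e-05) with no overlap. It was the largest decrease among genes of the ER lists. The count fell to 1 without DMSO 2, DMSO 3, IAPP 4 or IAPP 5, each time with Derl3 still past the threshold.

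The ER stress response element, CCAAT and CCACG with 9 bases between them, was found in the promoter entries of 21 of 27457 genes (0.0765%). In the ER chaperone list, 4 of 6 members that fell and 4 of 15 that did not pass held it, and so did Derl3. The 3 windows shown, with the arms of the element in capitals, are at chr20:12766590-12766630 (minus strand, Derl3), chr7:121789228-121789268 (plus, Creld2) and chr15:102432523-102432563 (plus, Dnajc3).
Derl3: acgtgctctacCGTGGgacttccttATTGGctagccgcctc
Creld2: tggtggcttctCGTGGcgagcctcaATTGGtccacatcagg
Dnajc3: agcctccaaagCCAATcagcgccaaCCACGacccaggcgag
Dnajc3, which helps BiP and inhibits PERK, had a difference of −0.29 (limma adjusted p = 0.0227) and did not pass without DMSO 1, DMSO 3, IAPP 2, IAPP 4 or IAPP 5, where the adjusted p was up to 0.0751.

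**Figure D3:**
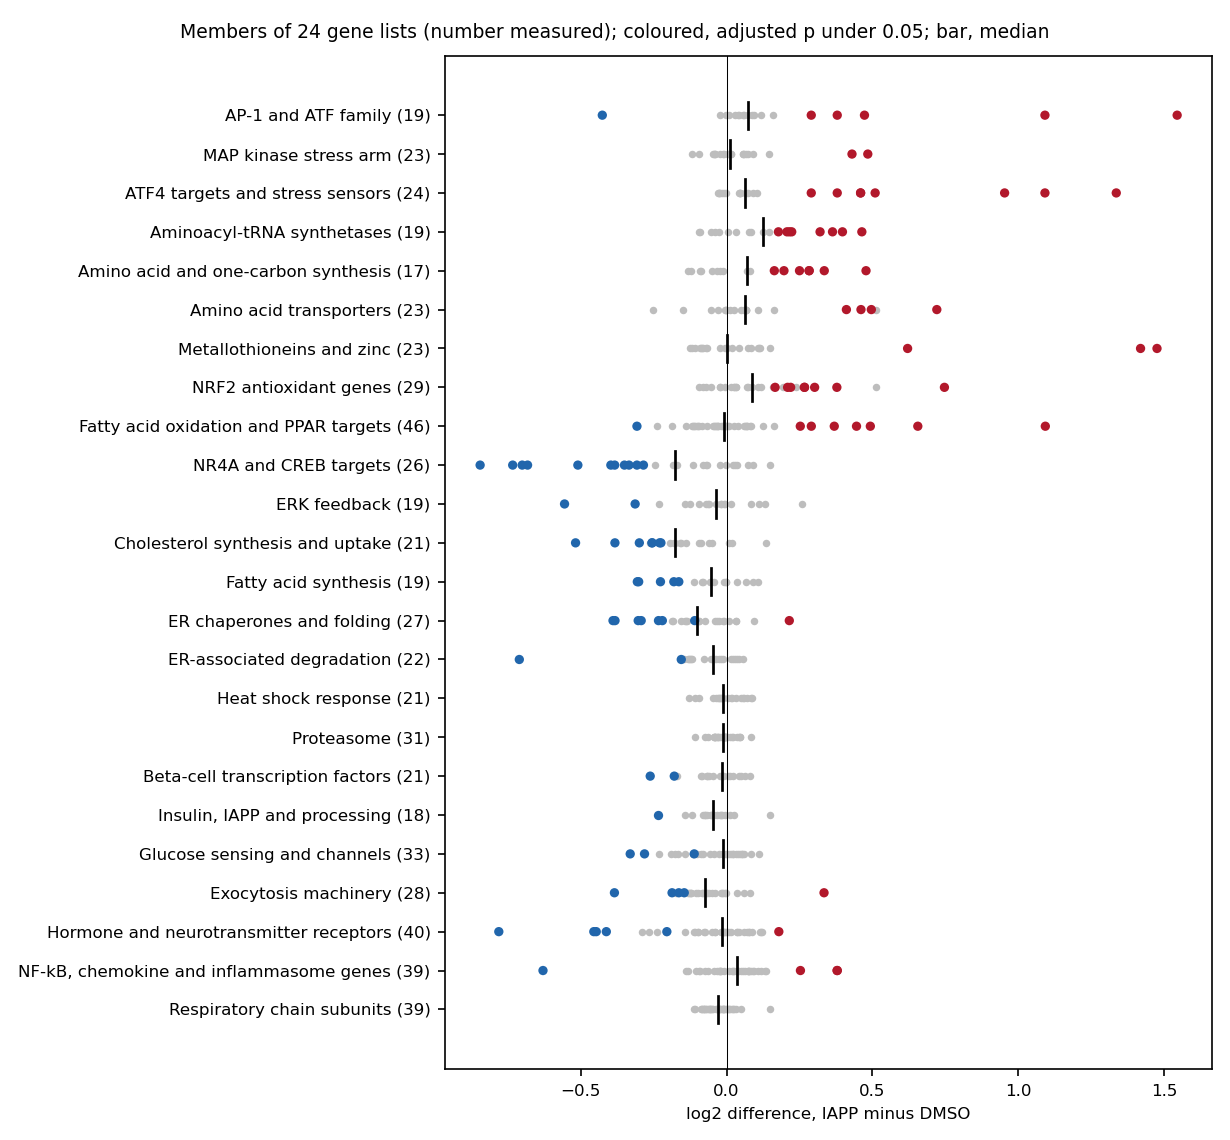
Log2 difference between IAPP and DMSO for each measured member of 24 gene lists, with the number of members in brackets, red for members past the threshold and higher, blue for those lower, grey for the rest and a bar at the median. The medians of the synthetase list (0.124) and of the NR4A and CREB list (−0.177) lie farthest to either side, while the proteasome and heat shock lists hold no coloured point.

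The insulin genes and the cell's own Iapp were not called. In whole wells, fewer cells of a type and less RNA per cell cannot be told apart. Ins1 read 7092, 5878, 5577, 5604 and 5737 in DMSO and 6103, 5599, 5910, 5886 and 5416 in IAPP, overlapping ranges with DMSO array 1 apart (log2 −0.04, SE 0.08, limma adjusted p = 0.94). Ins2 and Iapp had differences of −0.14 and −0.08 (limma adjusted p = 0.658 and 0.594). Beside 1.97% lower over all genes, 1 of 18 measured genes of insulin, IAPP and their processing fell. This was Ero1b, an oxidase for disulfide bonds that is also in the ER chaperone list (−0.23, limma adjusted p = 0.0243), and the count was 0 without DMSO 2, DMSO 3, DMSO 5, IAPP 2, IAPP 4 or IAPP 5.

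Beta-cell transcription factors fell in 2 of 21 members, beside 1.97% lower over all genes. Mafa, an activator of the insulin genes, read 1319, 1120, 1337, 1151 and 1224 in DMSO and 1091, 975, 1067, 943 and 1049 in IAPP (−0.26, SE 0.07, limma adjusted p = 0.0372), and Isl1 had a difference of −0.18. Both calls were fragile. None of the 21 passed without DMSO 3, DMSO 5, IAPP 2 or IAPP 4, or with arrays centred on their median, and 1 did without DMSO 1, DMSO 2, IAPP 1 or IAPP 5.

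Of 33 genes for glucose sensing and ion channels, 3 fell and none rose, beside 1.97% lower over all genes. Itpr1, a calcium release channel of the ER, read 2137, 2321, 2018, 2294 and 2404 in DMSO and 1689, 1685, 1745, 1809 and 1953 in IAPP (−0.33, SE 0.06, limma adjusted p = 0.00118). The glucose transporter Slc2a2 read between 10797 and 11054 in DMSO and between 9911 and 10326 in IAPP. These ranges did not overlap, but the difference was −0.11 (limma adjusted p = 0.0407) and did not pass in any fit that left out a compared array, with adjusted p values from 0.0517 to 0.104. The calcium channel gene Cacna1a (−0.28, limma adjusted p = 0.0366) did not pass without DMSO 2, DMSO 5, IAPP 1, IAPP 2 or IAPP 4, and in those fits 1 of the 33 genes passed.

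In the exocytosis list 4 of 28 members fell and 1 rose, beside 1.97% lower and 1.41% higher over all genes. Sytl4, the granuphilin that docks insulin granules, went from 2910 ± 302 to 2227.5 ± 219 (SD, n = 5; −0.38, limma adjusted p = 0.00788). Syt13, a synaptotagmin, had a difference of −0.19 (limma adjusted p = 0.00983), and Snap25, of the fusion complex, one of −0.16 (limma adjusted p = 0.0202) that did not pass without DMSO 3, IAPP 1 or IAPP 4 (adjusted p up to 0.0629). Syt11, a synaptotagmin that does not bind calcium, rose from 1121 ± 35.9 to 1413 ± 30.9 (0.33, limma adjusted p = 0.000207).

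In the list of hormone and neurotransmitter receptors, the vitamin D receptor had the largest decrease. Of 40 measured members, 5 fell and 1 rose, beside 1.97% lower and 1.41% higher over all genes. Vdr, the vitamin D receptor, read 2091, 1819, 1759, 1931 and 1807 in DMSO and 1144, 1047, 1181, 936 and 1176 in IAPP, a 0.582-fold level (log2 −0.78, SE 0.07, limma adjusted p = 5.4e-07). No IAPP array came near the lowest DMSO array. Calb1, a calcium-binding protein under vitamin D control, went from 1012 ± 87.1 to 766 ± 84.7 (−0.40, limma adjusted p = 0.005), and these 2 were the only members past the threshold among 10 of the vitamin D pathway. The somatostatin receptor Sstr1 and the bombesin-like receptor Brs3 had differences of −0.46 and −0.41. Gipr, the receptor of the incretin GIP, read 2374, 2724, 3015, 2746 and 3147 in DMSO and 1647, 1844, 2195, 2263 and 2371 in IAPP (−0.45, SE 0.11, limma adjusted p = 0.0191). Its groups touched at 2374 and 2371, and it did not pass without DMSO 3, DMSO 5, IAPP 1 or IAPP 2 (adjusted p up to 0.061).

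For amylin itself, the receptor genes gave 1 call. Calcr, the core subunit, read between 66 and 76.7 in DMSO and between 60.1 and 75 in IAPP. These intensities lie below the median of all probe sets, and whether they exceed background is not known. Of its partners, Ramp1 had a difference of −0.21 (limma adjusted p = 0.0375), Ramp2 of −0.11 (0.508) and Ramp3 of −0.04 (0.916). Ramp1, the 1 member of 20 in the list of amylin receptors and amyloid proteases that passed, did not pass without DMSO 2, DMSO 4, DMSO 5, IAPP 1, IAPP 3, IAPP 4 or IAPP 5 (adjusted p up to 0.116). Without DMSO 3 the count of that list was 2. Over all genes 3.38% passed, so 1 of 20 is no result about the list.

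The lists of inflammation and of cell death held 6 calls. In the list of NF-kB, chemokine and inflammasome genes 3 of 39 rose and 1 fell, beside 1.41% higher and 1.97% lower over all genes. Of those that rose, Casp4 had means of 54.1 in DMSO and 70.3 in IAPP, below the median of all probe sets. Relb did not pass without IAPP 1 or with centred arrays (limma adjusted p up to 0.0779). The chemokine Cxcl10 read 951, 1013, 1011, 961 and 1134 in DMSO and 1281, 1345, 1280, 1290 and 1391 in IAPP (0.38, SE 0.06, limma adjusted p = 0.000357). F3, tissue factor, which starts coagulation, fell from 2860 ± 238 to 1848 ± 145 (SD, n = 5; −0.63, limma adjusted p = 2.61e-06). In the BCL2 and death list 1 of 32 rose and 1 fell, beside 1.41% higher and 1.97% lower over all genes, so this count is no result about the list. Hrk, a BH3-only activator of apoptosis, read 319, 278, 355, 308.5 and 310.1 in DMSO and 501, 489, 410.1, 463 and 455 in IAPP (0.56, SE 0.06, limma adjusted p = 1.46e-05), with the groups apart. Cflar, which blocks caspase-8, fell from 424 ± 18.3 to 336.5 ± 23.7 (−0.33, limma adjusted p = 0.00491).

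Several further genes had large differences outside these programmes. Uap1l1, related to enzymes of nucleotide sugar synthesis, had tightly grouped arrays (427.5, 451, 444.5, 436 and 444 in DMSO, and 671, 757, 681, 743.5 and 731 in IAPP) and a log2 difference of 0.70 (SE 0.04, limma adjusted p = 2.4e-09). Sting1, an innate immune adaptor at the ER, and Klf11, a transcription factor, had differences of 0.57 and 0.54. Among the decreases, Mfsd2a, a carrier of lipids that hold omega-3 fatty acids, read 2681, 3016, 3016, 3127 and 3160 in DMSO and 1734, 1769, 1999, 1691 and 2218 in IAPP (−0.68, SE 0.07, limma adjusted p = 1.98e-06). F13a1, a coagulation factor subunit, and the GABA receptor subunit gene Gabra2 had differences of −0.61 and −0.57.

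In 10 of the 42 pathway lists no member passed in either direction. These were the lists of iron (14 measured members), the translocon and ER export (26), heat shock (21), the proteasome (31), complement (18), interferon response (22), p53 targets (18), respiratory chain subunits (39), mitochondrial stress and import (23) and cytosolic ribosomal proteins (24). Their medians lay between −0.034 for p53 targets and 0.054 for the interferon response. Over all genes 3.38% passed, so a count of 0 in lists of 14 to 39 members is near that share and is no result about them. Over all 42 lists, 122 of 1003 distinct measured members passed, 64 of them higher and 58 lower, beside 614 of 18166 genes (3.38%) on the whole array. The members were chosen with earlier results of these data known, so the larger share in the lists is no test of them.

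Markers of other cell types were used to check the culture. None of 7 immune, 5 endothelial, 9 fibroblast and stellate and 7 duct markers passed, and all immune and endothelial markers lay below the median of all probe sets. Of 9 acinar markers 1 was lower, the chymotrypsinogen gene Ctrb1 (−0.19, limma adjusted p = 0.0266), and of 7 neuronal markers 1 was higher, the synapsin gene Syn1 (0.21, limma adjusted p = 0.0336). Ctrb1 did not pass without DMSO 1, DMSO 3, DMSO 4, IAPP 3 or IAPP 4 (adjusted p up to 0.0891), and Syn1 passed only without DMSO 1 or IAPP 2 among the fits that left out a compared array (adjusted p up to 0.106 in the others). Gcg, the glucagon gene of alpha cells, had a difference of −0.13 (limma adjusted p = 0.0195). The summed intensity of the 6 alpha cell markers was 10786 to 11466 in DMSO and 10045 to 10400 in IAPP, and that of the 8 beta cell markers 40642 to 44083 in DMSO and 37910 to 40556 in IAPP. The alpha sum was almost wholly Gcg, with means of 10303.5 in DMSO and 9399.7 in IAPP. Of the 6 alpha cell markers 4 had a positive difference, and their median was 0.036. The part of these markers in any result was not tested, and Gcg did not pass without DMSO 2 or IAPP 4 (adjusted p of 0.0645 in either case).

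The 10 other arrays allow the same question to be asked in wells that held C4BP. None of them enters the difference between IAPP and DMSO, although all 20 arrays share 1 estimate of the spread. With the likely reading of the titles, C4BP minus C4BPD is the effect of IAPP in the presence of the binding protein. There, 431 genes (2.37%) passed, 137 higher (0.754%) and 294 lower (1.62%). Of the 257 genes that rose with IAPP against DMSO, 250 (97.3%) had the same sign in these arrays, compared with 55.9% of all genes, and 86 passed there too. Of the 357 that fell, 353 (98.9%) had the same sign, compared with 44% of all genes, and 169 passed. None passed in the opposite direction. The 255 genes called in both comparisons are 41.5% of the calls in IAPP against DMSO and 59.2% of those in C4BP against C4BPD.

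By programme, the counts in these arrays were as follows. In the NR4A and CREB list 11 of 26 fell (median −0.177), and Vdr had a log2 difference of −0.91. NRF2 genes rose in 6 of 29, with Hmox1 at 1.03, and Cpt1a had a difference of 0.84. In the same arrays 1 of 24 members of the ATF4 list and none of 19 synthetases passed there, with medians of 0.018 and 0.048. In the wells titled C4BPD, set against the same DMSO arrays, 4 members of the ATF4 list and 5 synthetases were higher, with Chac1 at 1.12 and Slc1a4 at 0.78. Other lists moved as well. In the metallothionein and zinc list 3 were higher and 1 lower, with Mt1 at 1.15, and in the ER chaperone list 6 were lower and 0 higher. The share of all genes that passed in C4BPD against DMSO is not given here, so these counts are no result about the lists.

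**Figure D4:**
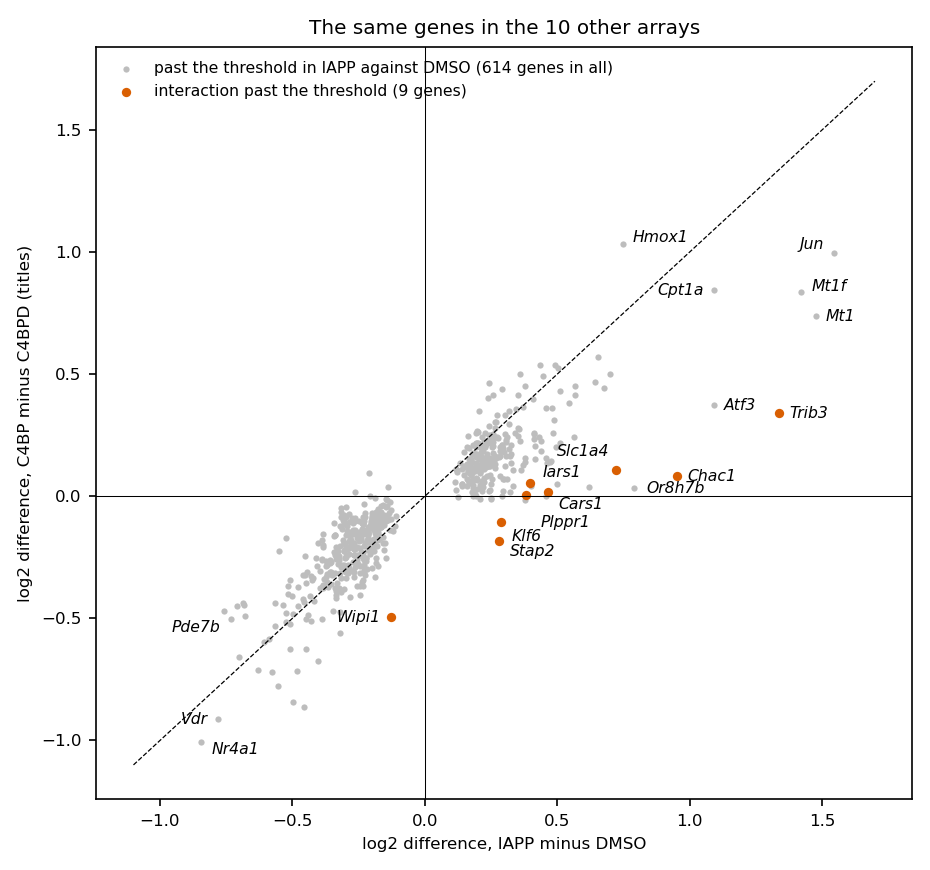
Log2 difference in the 10 arrays titled C4BP and C4BPD (y axis) against that between IAPP and DMSO (x axis) for the 614 genes past the threshold in the latter, in grey, and for the 9 genes past the threshold for the interaction, in orange, with the dashed line marking equal differences. Most grey points share their sign, and the orange points lie below the line.

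The interaction, the difference between these differences, was tested for every gene. It passed for 9 genes (0.0495%), each with a smaller or more negative difference in the presence of C4BP. No gene passed in the other direction by limma, where 363 had an unadjusted p under 0.05. Trib3 had a difference of 1.34 between IAPP and DMSO and 0.34 between C4BP and C4BPD, an interaction of −0.997 on the log2 scale (limma adjusted p = 0.0221). Chac1 had 0.95 against 0.08 (−0.87, limma adjusted p = 0.00949), Slc1a4 0.72 against 0.11 (−0.61, 0.0118), Cars1 0.46 against 0.02 (−0.45, 0.0118) and Iars1 0.40 against 0.05 (−0.34, 0.0221). The other 4 genes were Klf6, Plppr1, Stap2 and Wipi1, named after their values were seen. All 9 were also higher in C4BPD than in DMSO, by 0.255 (Klf6) to 1.12 (Chac1) on the log2 scale, with Trib3 at 0.90. The same C4BPD and DMSO arrays enter the interaction, with opposite signs. Picking genes by a negative interaction therefore favours a higher level in C4BPD than in DMSO, and this is no separate result. Mean intensity in C4BP was above that in IAPP for Chac1 (799 against 675), Slc1a4 (1495 against 1325) and Cars1 (1322 against 1257). For the rest of the 9 it was below, as for Trib3 (607 against 661). Whether a weaker response to IAPP or the higher level in C4BPD underlies the interaction was not tested. For Jun, Mt1 and Hmox1 the interaction did not pass (−0.55, −0.74 and 0.29, limma adjusted p = 0.53, 0.0669 and 1).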

How the data were processed

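The deposited values are linear intensities per probe set from 20 Affymetrix Rat Gene 2.0 arrays, normalized and summarized by the authors. Per the submitters' processing notes the tool was Affymetrix Expression Console, and the algorithm is not given in the sources used here. No detection calls were used, and the number of arrays limits the precision. Of 36685 probe sets in all, 18511 had exactly 1 symbol in the platform annotation, with symbols matched by Entrez ID for 18394. Several symbols were given for 575 and none for 17599, which include 190 controls that were set aside. The brightest probe set of each gene was kept (18166 genes, 291 with a choice). Log2 was taken with no further normalization or filter, and limma 3.58.1 in R 4.3.3 estimated 4 group means from the 20 arrays, with two-sided tests, Benjamini-Hochberg adjustment over all genes and a threshold of 0.05. The code was tested on simulated data. Means and SDs are of intensities, and log2 differences and SEs come from the model. The members and lists were chosen with earlier results of these data known. Genes were named by rule: the largest log2 differences in each direction among called genes, called members of each list and fixed genes, of which the text gives a selection. Nr4a3, Irs2, Crem, Mt2A, Klf6, Plppr1, Stap2 and Wipi1 lie outside the rule and were added after their values were seen. Promoters are RefSeq's (GRCr8, an entry for 14564 of the tested genes), and positions count from the start site to the leftmost base of a match. Alternatives were median centring, quantile normalization, a filter on dim genes, all probe sets, the 10 arrays alone, array weights, limma-trend, the title number as a block, groups by the treatment field, arrays left out and a threshold of 0.01.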

Additional observations from a re-analysis of the deposited data

Results flagged for a closer look

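Of 280 groups of 5 arrays examined for single arrays far from the rest, 14 held one. Chance alone gives about 1 in 20, so this count is no more than chance gives, and the arrays are listed as a description. DMSO 3 accounted for 4 of them. Its intensity was 986.5 for Cars1 (the others 889.5 to 902), 5379 for Psat1 (4709 to 4857), 1172 for Npc1 (1390 to 1426) and 454.8 for Cflar (409.2 to 421.8). DMSO 1 stood apart for Ins1 with 7092 (5577 to 5878) and for Calcr with 76.66 (65.97 to 68.61), and DMSO 5 for Aars1 with 2354 (2195 to 2211).

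IAPP 1 stood apart for Irs2 with 1631 (1440 to 1494) and for Insig1 with 1495 (1681 to 1736). IAPP 3 did so for Slc7a1 with 2148 (2281 to 2318) and for Psat1 with 6395 (6125 to 6192). The remaining arrays were IAPP 2 for Ctsl with 2508 (2390 to 2419), IAPP 4 for Dusp6 with 382.9 (433.9 to 453.4) and IAPP 5 for Acaca with 1467 (1292 to 1331).

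For 9 genes the difference between IAPP and DMSO and that between C4BP and C4BPD differed by limma's interaction test. The interaction on the log2 scale was −0.997 for Trib3, −0.872 for Chac1, −0.613 for Slc1a4, −0.448 for Cars1 and −0.344 for Iars1. It was −0.465 for Stap2, −0.393 for Klf6, −0.378 for Plppr1 and −0.369 for Wipi1.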

How the results depend on the processing

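Of 128 named genes called between IAPP and DMSO, 101 kept the call in all 10 fits that left out a compared array, 78 kept it in every fit run with groups by title, and none changed sign in those fits. The 614 calls became 438 with centred arrays, 616 with quantile normalization, 790 of 11154 without dim genes, 620 with all probe sets, 466 from the 10 arrays alone, 864 with array weights, 718 with limma-trend and 305 at a threshold of 0.01. Leaving out 1 array gave 405 to 686 genes (C4BP against C4BPD, 308 to 522). Of 1003 measured list members, 97 to 131 passed in those fits, beside 122 with all arrays. The C4BPD and C4BP arrays were left out as an addition chosen after seeing the data. Leaving out all arrays of number 2, 3, 4 or 5 gave 286, 402, 235 and 335 genes, and number 2 or 4 left 76 and 68 list members. Without number 2 there were 4 calls among synthetases, 4 among NRF2 genes and 1 in the exocytosis list, and without number 4 there were 5 in fatty acid oxidation. The treatment field gave 0 genes and 0 list members, with 103 of the 128 genes on the opposite side of 0.

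Whether the title numbers pair the arrays is not settled. The deviations of same-numbered arrays correlated at 0.407, 0.012, 0.095, 0.052 and 0.171 for numbers 1 to 5, and 2 of the 5 numbers correlated best with themselves. With the number as a replicate block, 1133 genes passed between IAPP and DMSO, among them all 614, with 197 list members, 958 between C4BP and C4BPD, and 18 for the interaction. Without detection calls, dim genes have no stated background.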

Other observations

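Some further gene groups were put together after their values had been seen, so their counts describe these arrays and carry no test of the group. They share some genes with the lists above, such as Npc1 and Npc2. Over all genes 1.41% were higher and 1.97% lower. Among 19 measured genes of folliculin, the Rag GTPases and AMPK, which sense nutrients and energy at the lysosome, 6 rose and none fell, with a median log2 difference of 0.097. Flcn, the folliculin gene, and Rragd, a Rag GTPase, had differences of 0.35 and 0.30 (limma adjusted p = 4.3e-05 and 0.000292). Among 50 genes of the lysosomal membrane and lumen, 13 rose and none fell, with a median of 0.056, and Ctns, the cystine exporter, had a difference of 0.32. In the arrays titled C4BP and C4BPD, 8 of these 50 rose, as did 3 of the 19 above. In the pathway list of autophagy and lysosome genes, 2 of 34 rose with IAPP against DMSO and none fell, with a median of 0.019. Without all arrays of number 2 the count of that list was 0.

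Of 24 genes for the breakdown of branched-chain amino acids and propionate, 7 fell and none rose, with a median of −0.085, and in the arrays titled C4BP and C4BPD 1 of the 24 fell. Hibadh and Ivd, of the valine and leucine routes, had differences of −0.23 and −0.22. Of 22 phosphodiesterases, which degrade cyclic nucleotides, 5 fell and none rose, and in those other arrays 4 fell. Besides Pde7b, these included Pde2a and Pde9a, with differences of −0.30 and −0.29 (limma adjusted p = 0.000621 and 0.00966).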
